A study of Mus musculus with 32 samples.

Results

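The cytosolic ribosomal protein genes were taken from the count tables by their symbols: every gene named Rps or Rpl followed by a number, with an optional final a, x, y or l, together with Rplp0, Rplp1, Rplp2 and Rpsa. Of 23420 genes in the tables, 80 matched, and the 73 with a mean of at least 1 CPM (counts scaled to a fixed library total) over 16 mice were described. They were 30 genes of the small subunit and 43 of the large subunit, and all 73 passed the filter on low counts of the genotype test. The symbol rule leaves out Rps3a1, a small subunit gene whose symbol ends in a number after the letter.

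RNA came from striatal punches, pooled over both hemispheres of each mouse, of 8 B6 (C57BL/6J) mice and 8 B6.D2 congenic mice aged about 50 days. The congenic mice were of Line 4a, whose members are heterozygous for a short DBA/2J segment of chromosome 11 against a B6 background, and the B6 mice were littermates that lacked it. All 16 mice were naive, with no drug given, and the labels give neither sex nor home cage for a mouse. The paper reports both females and males in each genotype, with the same number of each sex in both genotypes. In both genotypes, mice 1 to 4 were sequenced in lanes 5 and 6 and mice 5 to 8 in lanes 7 and 8, and for B6 mouse 7 the file of 1 lane was analysed. Whether each mouse came from a separate litter is not given, so the p-values below measure the spread between these mice.

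Ribosomal proteins assemble with ribosomal RNA into the small subunit, which decodes the messenger RNA, and the large subunit, which joins amino acids. Each is needed in about equal number, and most of their messenger RNAs start with a C followed by a run of pyrimidines, the TOP motif, through which the TOR pathway adjusts their translation. Their messenger RNAs are short and abundant, and mammalian genomes hold many processed pseudogenes copied from them.

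The start of the messenger RNA is shown for 7 members because the pyrimidine run is the sequence feature that the family is known for. The first 5 lines hold a run of at least 8 C or T bases and the last 2 do not. Each line gives 10 bases before and 20 bases from a RefSeq start site in the direction of transcription, with the longest run of C and T bases in capitals.
Rps6: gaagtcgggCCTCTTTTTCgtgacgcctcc
Rps12: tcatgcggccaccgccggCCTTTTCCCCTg
Rpl28: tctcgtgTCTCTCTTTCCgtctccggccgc
Rpl35a: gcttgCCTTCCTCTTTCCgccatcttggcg
Rpl39: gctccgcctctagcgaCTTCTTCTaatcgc
Rpl41: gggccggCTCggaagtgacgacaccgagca
Rps16: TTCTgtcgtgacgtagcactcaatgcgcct

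On GRCm38.p6 these windows are chr4:86857348-86857377 on the minus strand for Rps6, chr10:23787190-23787219 on the minus strand for Rps12 and chr7:4792955-4792984 on the plus strand for Rpl28. The Rpl35a window is chr16:33056472-33056501 on the plus strand, and that of Rpl39 is chrX:37085203-37085232 on the minus strand. The Rpl41 window is chr10:128549149-128549178 on the minus strand, and that of Rps16 is chr7:28350679-28350708 on the plus strand. All 7 windows span the annotated start of the first exon and so hold promoter and 5′ untranslated bases.

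RefSeq promoter sequences were matched for 54 members. A run of 8 or more C or T bases lay in the 30-base window of 21 of them (38.9%), against 13.98% of the 11391 tested genes with a promoter sequence. The motif CCGGAAG, a core recognised by ETS family factors, was found on either strand in the 300 bases around the start (250 before, 50 from it) of 22 members (40.7%), against 17.2% of the tested genes. Its reverse complement, CTTCCGG, can share bases with a C or T run. TATAAA, on either strand of the same 300 bases, was found in 6 members (11.1%) and in 9.31% of the tested genes. Where RefSeq gave several starts, the window with the longest run was used for members and for other genes alike, and a start annotated a few bases away can move a run out of the window.

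The libraries held 19032826 to 33748353 counts on genes, and the 2 lane files of a mouse differed within sampling noise (chi-square per degree of freedom 0.997 to 1.05 in the 15 mice with both). The striatal projection neuron markers were present in every mouse, with a summed level of 7129 to 10391 TMM-scaled CPM in B6 mice and 7755 to 8970 in congenic mice. Of these 13 genes 10 had a higher mean in congenic mice, against 54.9% of all tested genes, and their median log2 fold change was 0.034. Of 10 cortical glutamatergic neuron markers 0 were higher, and 9 had an unadjusted p under 0.05 in edgeR's test, against 10% of tested genes. Their median was -0.59, or -0.61 without B6.D2 congenic mouse 1, and 0 passed an FDR of 5%. The part of tissue content in the members' levels was not tested. A pair of libraries stood apart. In the library of B6.D2 congenic mouse 1, reads with more than 1 alignment made up 27.3%, against 19.5% to 21.4% in the other mice. Reads on no annotated gene made up 10.2% there and 11.3% in B6 mouse 8, against 14.5% to 15.9% in the other 14 mice.

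The 73 members drew between 1.24% and 2.14% of the gene counts of a mouse. In B6 mice the share ranged from 1.24% to 1.57%, with a median of 1.35%. In congenic mice it ranged from 1.32% to 2.14%, also with a median of 1.35%. B6.D2 congenic mouse 1 alone held the 2.14%, and the other congenic mice lay between 1.32% and 1.44%, inside the B6 range.

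**Figure D1:**
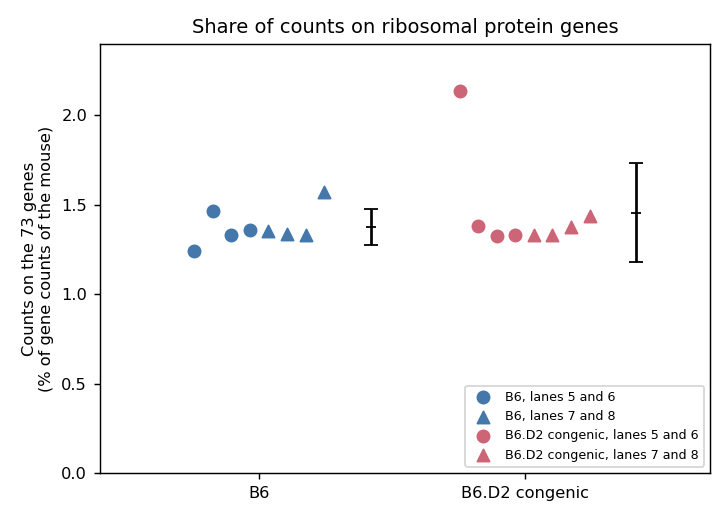
Counts on the 73 ribosomal protein genes as a percent of all gene counts of each mouse (vertical axis), by genotype; circles are mice of lanes 5 and 6, triangles mice of lanes 7 and 8, and black bars are the mean ± SD of 8 mice. B6.D2 congenic mouse 1, at 2.14%, lies above all others, and the next highest, B6 mouse 8, is at 1.57%.

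After TMM scaling, the summed level was 13801 ± 1207 CPM in B6 mice and 14521 ± 2755 CPM in congenic mice (mean ± SD, n = 8 each), a ratio of 1.05. Without B6.D2 congenic mouse 1 the congenic mean was 13556 ± 397 CPM (SD, n = 7) and the ratio was 0.982. Without B6 mouse 8 as well, the B6 mean was 13442 ± 705 CPM (SD, n = 7) and the ratio was 1.01. The genotype means differed by less than the SD of the B6 mice in each of these 3 sets.

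Levels within the family were compared per kilobase of 1 annotated transcript, as TMM-scaled CPM per kb, for the 72 members with a transcript (there was none for Rpl41). The median was 227 CPM per kb, with 247 for the small subunit and 211 for the large subunit. Rplp1, an acidic protein of the ribosomal stalk that recruits elongation factors, was highest at 897 CPM per kb. Rps29 followed at 642, Rps15 at 563, Rpl9 at 463 and Rps21 at 450 CPM per kb.

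Rps27l, a paralog of Rps27, was lowest at 18.4 CPM per kb. Rps15a stood at 29.7, Rpl18 at 30.7 and Rps20 at 33.2 CPM per kb, but the transcripts used for these 3 genes were 3721, 2987 and 3706 bases long, against a median of 768 bases. A shorter form of each would give a higher value. Rplp2, the partner of Rplp1 in the stalk, stood at 94.3 CPM per kb, and Rplp0, the stalk base, at 147. The transcript used for Rplp2 was 964 bases long and that for Rplp1 495.

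Members with known roles outside the core were also counted. Rpl3, which lies near the peptidyl transferase centre, had the highest CPM of all members, 481 ± 53.4 in B6 mice and 492.8 ± 57.7 in congenic mice (SD, n = 8 each). Rpsa, also known as the laminin receptor, had 465 ± 50.1 CPM in B6 mice and 471 ± 67.9 in congenic mice. Rps6, the subunit phosphorylated by S6 kinases downstream of TOR, ranged from 232 to 312 CPM (median 252) in B6 mice, and from 245 to 272 in the congenic mice other than mouse 1, which had 381.

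Rpl5 and Rpl11 form a complex with the 5S ribosomal RNA that can bind the p53 regulator Mdm2. Rpl5 had 253 ± 25.5 CPM in B6 mice and 261 ± 31.0 in congenic mice, and Rpl11 had 193 ± 18.6 and 202 ± 39.9 (SD, n = 8 each). Rps27a, which is made as a fusion with ubiquitin, had 204 ± 25.8 and 213 ± 46.1 CPM. Rps4x and Rpl10, both coded on the X chromosome, had 255.9 ± 18.1 and 246 ± 21.6 CPM in B6 mice and 264 ± 45.01 and 258 ± 49.5 in congenic mice. The genotype means of these genes differed by less than either SD.

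The genotype comparison asked whether the congenic segment came with another level of any member. In edgeR's quasi-likelihood test with Benjamini-Hochberg adjustment over 15589 genes, 0 of the 73 members passed an FDR of 5%, where 0.00641% of all tested genes, 1 gene, did so. At an unadjusted p under 0.05 it was also 0 of 73, against 10% of all tested genes. DESeq2 and edgeR's likelihood ratio test also called 0 members at either threshold. The members' unadjusted p-values ran from 0.139 to 0.935, and their lowest adjusted p was 0.608.

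All 73 members had a higher fitted mean in congenic mice, where 54.9% of tested genes did and 45.1% were lower. Their log2 fold changes, congenic over B6, ran from 0.0063 to 0.17 with a median of 0.076, against a median of 0.012 over all tested genes. The medians of the small and the large subunit were 0.077 and 0.073. The standard errors ran from 0.057 to 0.13, with a median of 0.096.

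This direction rested on 1 mouse. Without B6.D2 congenic mouse 1, 8 members were higher and 65 lower in congenic mice, with a median log2 fold change of -0.028 and a range from -0.088 to 0.031. Of all tested genes, 49.6% were then higher and 50.4% lower. In that set 0 of 73 members passed an unadjusted p of 0.05, against 13.4% of the tested genes, and 0 passed the FDR, against 0.0256%. The median standard error of the members was 0.051 without that mouse and 0.096 with it.

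**Figure D2:**
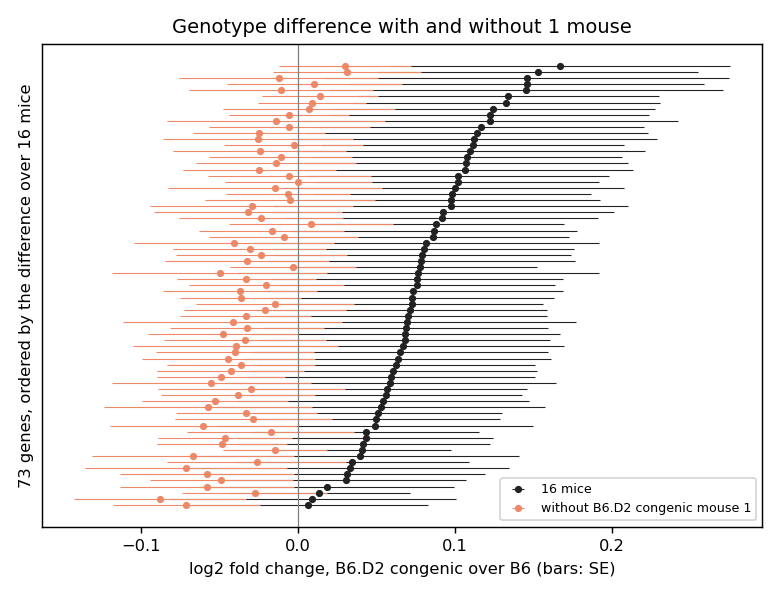
Log2 fold change of B6.D2 congenic over B6 mice (horizontal axis) for each of the 73 genes, ordered along the vertical axis by the value over 16 mice; points are fitted values, bars their standard errors, black with 16 mice and orange without B6.D2 congenic mouse 1. The black points all lie above 0, between 0.0063 and 0.17, and 65 of the orange points lie below 0.

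The lane pairs gave opposite signs. Among the 8 mice of lanes 5 and 6, which include B6.D2 congenic mouse 1, all 73 members were higher in congenic mice, with a median log2 fold change of 0.20. Among the 8 mice of lanes 7 and 8, which include B6 mouse 8, 7 were higher and the median was -0.054. Among mice of lanes 5 and 6 other than congenic mouse 1, 29 were higher and the median was -0.0082, and with neither outlying mouse, over both lane pairs, 50 were higher and the median was 0.0088. Over all tested genes the median was 0.013 in lanes 5 and 6 and -0.0059 in lanes 7 and 8. It was -0.00061 in lanes 5 and 6 without congenic mouse 1, and -0.0018 with neither outlying mouse. The share of tested genes with a higher congenic mean was not counted in these sets. The difference between lane pairs was not tested.

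Rpl41, a very short basic peptide of the large subunit, had the smallest p of the members. It ranged from 239 to 294 CPM (median 263) in B6 mice, and from 258 to 284 in 7 congenic mice, with 480 in B6.D2 congenic mouse 1. That 1 value lay above all others and the remaining 15 overlapped. The log2 fold change was 0.17 ± 0.11 (SE, n = 8 each), with an adjusted p of 0.608 in edgeR's quasi-likelihood test and p = 0.229 in an exact two-sided permutation test. Without congenic mouse 1 it was 0.030 ± 0.042.

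Rps12, a small subunit protein, ranged from 152 to 189 CPM (median 172) in B6 mice, and from 154 to 197 in 7 congenic mice, with 299 in congenic mouse 1. Apart from that mouse the groups overlapped over most of their range. The log2 fold change was 0.15 ± 0.10 (SE), with an adjusted p of 0.612 in edgeR's test and an exact permutation p of 0.261. Without congenic mouse 1 it was 0.031 ± 0.047.

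Rps16 ranged from 125 to 151 CPM in B6 mice and from 128 to 142 in 7 congenic mice, with 230 in congenic mouse 1. Rpl28 ranged from 129 to 149 CPM in B6 mice and from 132 to 147 in 7 congenic mice, with 236 in congenic mouse 1. In both genes the range of the 7 congenic mice lay inside that of the B6 mice. Their log2 fold changes were 0.13 ± 0.096 and 0.13 ± 0.098 (SE), and 0.014 and 0.0092 without congenic mouse 1. The adjusted p-values in edgeR's test were 0.642 and 0.647, and the exact permutation p-values 0.343 and 0.373.

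Rps29, a zinc-binding protein of the small subunit head, ranged from 202 to 281 CPM in B6 mice and from 232 to 257 in 7 congenic mice, with 426 in congenic mouse 1. Rpl39, a small protein of the exit tunnel, ranged from 65.1 to 86.6 CPM in B6 mice and from 62.3 to 80.8 in 7 congenic mice, with 143 in congenic mouse 1. Rps27l ranged from 7.48 to 9.70 CPM in B6 mice and from 7.77 to 9.74 in 7 congenic mice, with 16.5 in congenic mouse 1. In all 3 genes the B6 mice and the 7 other congenic mice overlapped. Their log2 fold changes were 0.15 for each gene, with SE 0.11 for Rps29 and 0.13 for the other two, and exact permutation p-values of 0.424, 0.555 and 0.557. They were 0.010 for Rps29, -0.011 for Rpl39 and -0.012 for Rps27l without congenic mouse 1.

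The remaining members among the 10 with the smallest p were Rpl23, Rpl35a and Rps13. Congenic mouse 1 had 274, 248 and 190 CPM of them, and the highest other mouse had 186, 172 and 126 CPM. Their log2 fold changes were 0.11, 0.12 and 0.12, with adjusted p-values of 0.698, 0.685 and 0.686 in edgeR's test. Leaving out congenic mouse 1 gave -0.0026 for Rpl23, 0.0073 for Rpl35a and -0.0055 for Rps13. Over all 73 members, the smallest exact permutation p was 0.229, that of Rpl41.

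B6.D2 congenic mouse 1 had the highest level of all 73 members among the 16 mice, where it had the highest level of 31.3% of tested genes. Its level over the median of the other 7 congenic mice ran from 1.23-fold to 1.89-fold, with a median of 1.61-fold. The small and the large subunit had medians of 1.63-fold and 1.61-fold. The largest values were those of Rps27l (1.89-fold), Rpl39 (1.87-fold) and Rpl41 (1.80-fold). The smallest were those of Rpl4 (1.23-fold), Rps15a (1.31-fold) and Rpl3 (1.35-fold).

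B6 mouse 8 was second highest for 64 of the 73 members, B6 mouse 2 for 7 and B6.D2 congenic mouse 8 for 2. Its level over the median of the other 7 B6 mice had a median of 1.203-fold over members and ran from 0.954-fold for Rpl41 to 1.37-fold for Rps7. B6 mouse 1 was lowest of all mice for 59 members. The shares of all tested genes with these ranks were not counted. In B6 mouse 8 the members' log2 deviations lay at a median percentile of 89.2 among all tested genes, with a range from 42.3 to 98.0. Across 72 members, the log2 deviation in congenic mouse 1 and that in B6 mouse 8 had a Spearman rho of -0.097, given as a description since the genes share these libraries.

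**Figure D3:**
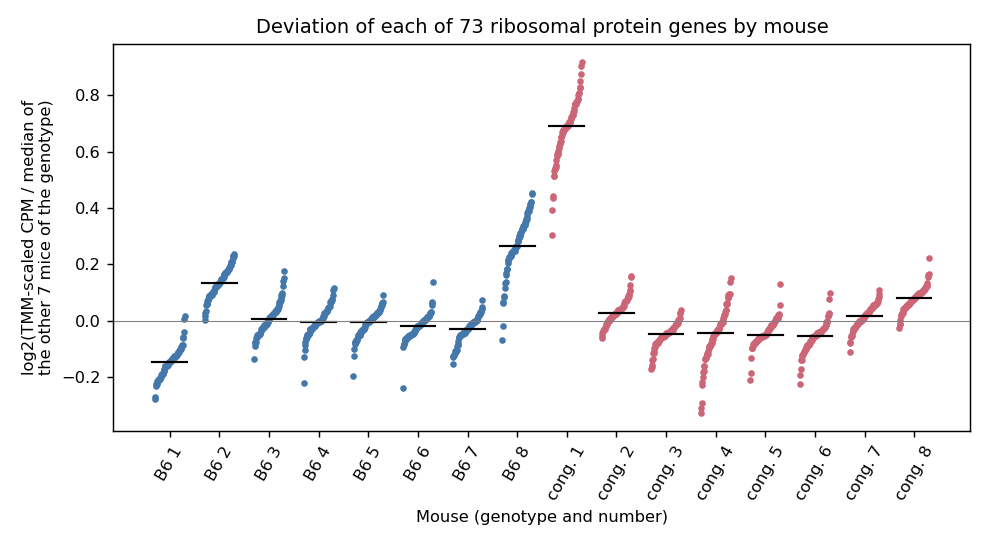
Log2 ratio of the TMM-scaled CPM of each mouse to the median of the other 7 mice of its genotype (vertical axis), for each of the 73 genes, with mice along the horizontal axis (cong. is B6.D2 congenic); each point is a gene, sorted within a mouse, and black lines are medians. The median is 0.69 in congenic mouse 1, 0.27 in B6 mouse 8 and -0.14 in B6 mouse 1.

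Other gene groups were also high in congenic mouse 1. Its median log2 deviation from the other congenic mice was 0.82 for 72 nuclear-coded subunits of the respiratory chain, 0.69 for the ribosomal members, 0.58 for 76 mitochondrial ribosomal proteins and 0.56 for 10 other genes tied to the cytosolic ribosome. It was 0.36 for 14 elongation and termination factors, 0.22 for 40 initiation factors, 0.053 for 41 ribosome biogenesis genes and -0.047 for 27 genes of TOR signalling and TOP regulation. Over all tested genes the median was 0.0027.

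In the same library the deviation followed exon length. Among genes outside the family, the median log2 deviation was 0.64 for 589 genes with up to 1 kb of exon, 0.44 from 1 to 2 kb, 0.13 from 2 to 4 kb, -0.18 from 4 to 8 kb and -0.46 for 1545 genes over 8 kb. Across 72 members the deviation had a Spearman rho of -0.61 with transcript length and of -0.59 with mean CPM. The share of multiply aligned reads and the share on no gene differed in this library too, as given above. The part of these in the members' levels was not tested.

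In B6 mouse 8 the medians over the same length classes ran from -0.083 to 0.069, while the members' median was 0.27. Related lists were raised as well. The median was 0.21 for the 10 other genes tied to the cytosolic ribosome and 0.19 for elongation and termination factors. It was 0.16 for mitochondrial ribosomal proteins, 0.15 for the respiratory chain and 0.13 for initiation factors. Ribosome biogenesis genes were at -0.011 and genes of TOR signalling and TOP regulation at -0.087. The 13 striatal projection neuron markers had a median log2 deviation of 0.45 in this mouse and a summed level of 10391 CPM, the highest of all mice. The 9 nuclear-retained RNAs had a median of -1.44 and a summed level of 4926 CPM, the lowest of all mice. Their part in the members' levels was not tested.

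**Figure D4:**
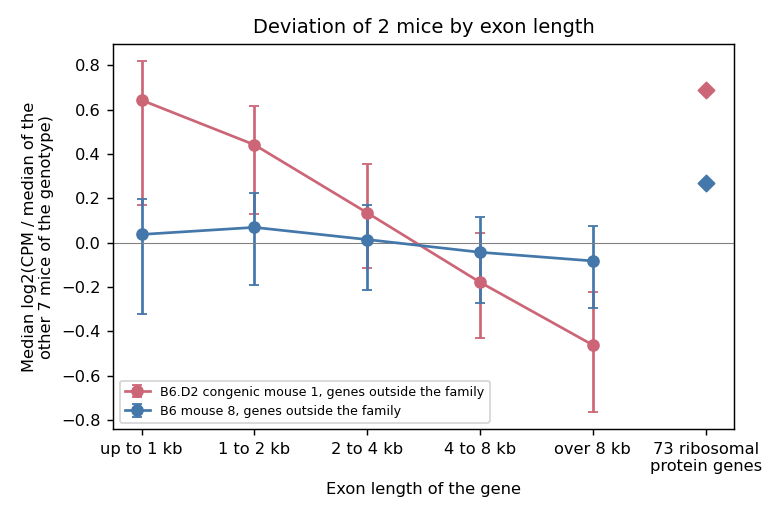
Median log2 ratio of the CPM of a mouse to the median of the other 7 mice of its genotype (vertical axis) for genes outside the family in 5 classes of exon length (horizontal axis), with bars from the lower to the upper quartile of genes, and for the 73 ribosomal protein genes (diamonds). The medians fall from 0.64 to -0.46 with length in B6.D2 congenic mouse 1, and stay between -0.083 and 0.069 in B6 mouse 8.

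The members covaried across mice. The mean Pearson r of log2 CPM over their 2628 pairs was 0.93 across 16 mice, with a range from 0.62 to 0.99, against a mean of 0.0017 over all pairs of tested genes. It was 0.87 for the respiratory chain and 0.75 for mitochondrial ribosomal proteins. Points of a pair share library, depth and scaling, so these values are descriptions. The mean over all pairs takes in positive and negative r, so it is no baseline for genes of like length or level.

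Part of this value rested on the outlying mice. Without congenic mouse 1 the members' mean r was 0.75, that of the respiratory chain 0.52 and that of mitochondrial ribosomal proteins 0.36. Without B6 mouse 8 as well they were 0.65, 0.48 and 0.28. Some marker lists were as high as the members without congenic mouse 1 alone. The mean r was then 0.80 for cortical glutamatergic neurons, 0.80 for oligodendrocytes, 0.78 for endothelial and mural cells and 0.77 for striatal projection neurons. The other marker lists ran from -0.14 for 2 blood cell genes to 0.74 for 11 activity-regulated genes. Within B6 mice the members' mean r was 0.83, and within the 7 congenic mice other than mouse 1 it was 0.48. Within lanes 5 and 6 it was 0.97, or 0.72 without congenic mouse 1, and within lanes 7 and 8 it was 0.80.

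Single members were compared with the mean standardized log2 CPM of the other members. Over 16 mice r ran from 0.82 for Rps15a to 0.995 for Rpl11, and Rpl35, Rpl37, Rpl13a and Rpl24 were at 0.991 or above. Without congenic mouse 1 the lowest were Rps15a at 0.24 and Rpl41 at 0.26, followed by Rps27l at 0.54 and Rpl39 at 0.61. Rpl11, which binds the 5S ribosomal RNA, was still at 0.98.

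Outside the symbol rule, the genes whose log2 CPM followed the members' mean most closely over 16 mice included Gabarap (r = 0.991), an autophagy protein, Dnajc8 (0.988), Suclg1 (0.987), a citric acid cycle enzyme, and Atp5h (0.986), a subunit of ATP synthase. Fau (0.985), which codes for Rps30 as a fusion with a ubiquitin-like protein, Slc25a4, Atp6v1g1, Ndufb5 and Naca were also among the 10 highest. Among the 5 lowest r values were those of Setd5 (-0.98), Dido1 (-0.98), Ep400 (-0.98) and Chd8 (-0.97). Without congenic mouse 1 the highest was Rps3a1 (0.963), the small subunit gene left out by the symbol rule, and the lowest were Tmem131 (-0.92), Col4a1 (-0.91) and Col4a2 (-0.91), of which the last 2 code for collagen chains of basement membranes.

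The SD over members of the log2 deviation within a library ran from 0.042 to 0.11, with the largest value in congenic mouse 1. Across the 15 mice other than congenic mouse 1, the SD of a member's log2 CPM had a median of 0.098. This was 0.125 over all tested genes and 0.089 over 2857 genes of like level.

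Reads that aligned to more than 1 place were not counted, so copies elsewhere in the genome bear on these levels. On NCBIM37, the share of 50-base windows of a member's transcript with an identical copy outside its own locus had a median of 61.1% over 72 members and was highest for Rps12, at 98.1%. At least 50% of windows had a copy for 43 of them. The median was 0% for mitochondrial ribosomal proteins and 1.14% for the respiratory chain.

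Across 72 members the share with a copy had a Spearman rho of 0.48 with CPM per kb and of 0.10 with mean CPM. Transcript length enters both the share and CPM per kb. Rps15a, Rps20 and Rpl18, with the long transcripts given above, had shares of 8.66%, 10.1% and 18.2%. All 72 had at least 1 CPM by the rule, so these values leave out the rows with the lowest counts. Rps12, at 98.1%, had 182 CPM. The share also had a rho of 0.10 with the deviation in congenic mouse 1. A window across a splice junction has a copy only where the genome holds a spliced copy, and the windows were searched on NCBIM37 while the reads were aligned to mm10.

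**Figure D5:**
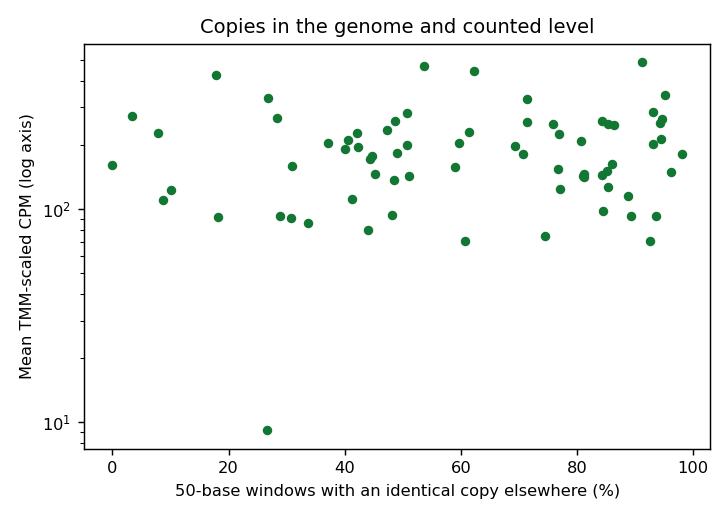
Mean TMM-scaled CPM over 16 mice (vertical log axis) against the percent of 50-base transcript windows with an identical copy elsewhere in NCBIM37 (horizontal axis), 1 point for each of 72 genes. Levels span about the same range at low and high shares (Spearman rho 0.10), and the single low point is Rps27l at 9.17 CPM. Genes below 1 CPM were left out by the rule.

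The 7 rows of the symbol rule below 1 CPM include genes of every ribosome. Rpl26 was listed at 0 in all 16 mice, Rpl30 had 2 to 12 counts per mouse, Rpl34 3 to 14 and Rps27 11 to 33. The share of windows with a copy elsewhere was 81.8% for Rpl26, 44.6% for Rpl30, 44.7% for Rpl34 and 99.7% for Rps27. Among members, shares from 44.0% to 98.1% went with levels from 70.5 CPM for Rpl36a (92.6%) to 487 CPM for Rpl3 (91.2%). Members were kept only at 1 CPM or more, so this range cannot show the part of copies in the low counts. That part was not tested. The others were paralogs known from heart and skeletal muscle (Rpl3l, 17 to 43 counts) or testis (Rpl39l, 0 to 6 counts, and Rpl10l, listed at 0 in all mice).

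Genes around the ribosome were read from fixed lists. Of 40 initiation factors, 14 elongation and termination factors, 41 biogenesis genes, 27 genes of TOR signalling and TOP regulation and 76 mitochondrial ribosomal proteins tested, 0 passed the FDR of 5%. At an unadjusted p under 0.05 the 5 lists held 4 of 198 genes, against 10% of all tested genes. The lists held 17 without congenic mouse 1, of which 3 were higher and 14 lower in congenic mice, against 13.4% of all tested genes. Etf1, the release factor that reads stop codons, had 87.6 ± 4.34 CPM in B6 mice and 83.0 ± 2.42 in congenic mice (SD, n = 8 each). Trp53 had 22.0 ± 2.94 and 25.2 ± 2.25 CPM, Rps6kb2 33.8 ± 6.20 and 39.3 ± 1.40, and Rps6ka1 18.7 ± 1.99 and 20.8 ± 1.77. Etf1 was lower and the other 3 genes higher in congenic mice, and 0 of the 4 passed after adjustment, with adjusted p-values from 0.441 to 0.499 in edgeR's test.

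Members lay on 18 chromosomes. Of the 80 rows of the symbol rule, 7 were on chromosome 11, and 0 lay between Hnrnph1 and 2610507I01Rik, a pair of genes in the Line 4a region.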

How the data were processed

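Striatal RNA of 16 mice was measured by stranded, poly(A)-selected 50-base single-end RNA-seq. Per their methods and deposited scripts, the authors used TopHat (bowtie2 2.2.2) for alignment to the UCSC mm10 genome and counted reads with htseq-count 0.6.1p1 in union mode, ignoring strand. The deposited counts, per gene and lane, leave out reads with more than 1 alignment or gene. The authors' tables of fold changes and p-values were not used.

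Lane files were summed per mouse (31 files). Genes passing filterByExpr were scaled by TMM and tested with edgeR 4.0.16's quasi-likelihood test (R 4.3.3) on genotype alone, since labels give no home cage, with Benjamini-Hochberg adjustment. The SE is the log2 fold change over the square root of F. Log2 CPM used a prior count of 0.5. Permutation tests enumerated 8 against 8 mice. Code was tested on simulated data. Alternatives used DESeq2 1.42.0, other scalings, filters, lanes and mice. Transcripts came from GENCODE M1 (NCBIM37), and 72 members had one; positions and promoters came from RefSeq.

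The members and lists were chosen with earlier results of these data known. Named members were the 10 with the smallest p, the highest and lowest per kb, paralogs, members with known roles, and those most and least like the rest; log2 fold changes are given singly for the first 10. Members named for their ratio in 1 mouse were chosen after the values were seen. A few genes that the rule names are not reported here.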

Additional observations from a re-analysis of the deposited data

Results flagged for a closer look

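B6.D2 congenic mouse 1 lay apart from the other 7 congenic mice, by the gap to its nearest neighbour over the range of the group, in the share of gene counts on the ribosomal protein genes (2.14%) and in all 73 of the single genes. Among the 10 genes given with a fold change it had 274 CPM of Rpl23, 236 of Rpl28, 248 of Rpl35a, 143 of Rpl39, 480 of Rpl41, 299 of Rps12, 190 of Rps13, 230 of Rps16, 16.5 of Rps27l and 426 of Rps29. B6 mouse 8 lay apart from the other B6 mice in 21 of the 73 genes, among them Rps13 at 126 CPM. Chance marks about 1 group in 20 in this way, and the genes of a library are not independent, so these counts describe 2 libraries. The share of all tested genes that lay apart in these mice was not counted.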

How the results depend on the processing

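The count of members at an FDR of 5% and at an unadjusted p under 0.05 was 0 under all 31 alternatives. Leaving out 1 mouse at a time, the members with a higher congenic mean numbered 8 to 73, their median log2 fold change ran from -0.028 to 0.11, the difference in their share of counts from -0.015 to 0.111 percentage points, and their mean pairwise r from 0.75 to 0.95; the lowest values came without B6.D2 congenic mouse 1. Single log2 fold changes then ran from -0.0026 to 0.14 for Rpl23, -0.011 to 0.20 for Rpl39, -0.0055 to 0.15 for Rps13 and -0.012 to 0.18 for Rps27l. In mice of lanes 7 and 8 the higher members numbered 7, the median was -0.054, the difference in share -0.030 percentage points and the mean r 0.80, and Rpl23 (-0.0036), Rpl28 (-0.010), Rpl35a (-0.0012), Rps13 (-0.037) and Rps29 (-0.022) changed sign. A pair of alternatives was added after seeing the data. In mice of lanes 5 and 6 without congenic mouse 1 the higher members numbered 29, the median was -0.0082, the difference in share -0.0041 percentage points and the mean r 0.72, and Rpl23 (-0.012), Rpl39 (-0.046), Rps12 (-0.017) and Rps27l (-0.040) changed sign. Without congenic mouse 1 and B6 mouse 8 the mean r was 0.65 and Rpl39 was at -0.0026. The cause was not tested. Over all genes, the count at an FDR of 5% was 1, with 25 in DESeq2, 20 in the likelihood ratio test, 7 without congenic mouse 1 and B6 mouse 8, 4 without congenic mouse 1, 3 without congenic mouse 6, 2 with lane pair as a covariate, 2 in lanes 5 and 6 without congenic mouse 1, and 0 in either lane pair and with the replicate block.

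Mice with the same number were not treated as pairs in the main test. The correlation of their deviations ran from -0.12 to 0.36 and exceeded 0.1 in 3 of 8 pairs, and 2 of 8 mice correlated best with their own number. These values cannot show whether such mice shared a cage or litter. With the replicate block, 71 members were higher, with a median of 0.059 against 0.0093 over all tested genes, and 0 genes in all passed the FDR. A denominator without mitochondrial genome genes was not run because the tables list 0 of them. The spread between mice, not counting error, limits these comparisons.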
